A study of Mus musculus with 12 samples.

Results

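The enzymes that build purine nucleotides around inosine monophosphate dehydrogenase 2 (Impdh2) were examined in mouse blood. The set held 10 genes, listed by symbol: Ppat, Gart, Paics, Adsl, Atic, Impdh1, Impdh2, Gmps, Adss and Adk. All 10 were found among the 27381 features of the arrays, 9 through the platform's gene symbols and Impdh2 through its Entrez gene number (23918) in a RefSeq gene table. Impdh2 was on the list because the study followed it.

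Blood RNA of male and female C57B16/J mice (spelled as in the labels), 8 to 12 weeks old at surgery, was measured on 12 Mouse Gene 2.0 ST arrays, each loaded with a pool of globin-depleted RNA from 7 mice. The arrays formed 4 groups of 3: untrained pre, untrained post, trained pre and trained post. All mice were head-fixed on an air-cushioned ball and restricted in water, and trained mice had to follow a visual cue for their water while untrained (control) mice received it at random times. Pre-training blood was drawn from a sinus of the skull under anaesthesia at surgery and post-training blood from the trunk at death, so recovery from surgery, restricted water, age and the way blood was taken all went along with time and cannot be told apart from it. Replicates 1 and 2 of every group belonged to batch 1 and replicate 3 to batch 2, which was the study's repeat of the experiment.

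Values are log2 intensities normalized by the authors, and the levels of different genes on an array cannot be set against each other. The array medians ran from 1.44 to 1.52. Over all features the Pearson r between arrays was 0.947 to 0.978. Of 61 marker genes of blood cells, skeletal muscle and dividing cells, 59 had a mean at or above 1.47, the median of all feature means, and those below it were the muscle genes Myh2 and Mylpf. Muscle markers are not expected in blood, and their mean level was highest in untrained pre 1 (0.96 log2 above the mean of all arrays, against -0.44 to 0.38 in the others). The reference gene Ywhaz differed by -0.01 log2 between trained and untrained mice after training (95% interval -0.31 to 0.28).

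Purine nucleotides are assembled on a ribose phosphate in a chain of steps that ends in inosine monophosphate (IMP). From IMP the pathway forks: the IMP dehydrogenases Impdh1 and Impdh2 and then Gmps lead to guanine nucleotides, whereas Adss and then Adsl lead to adenine nucleotides. Dividing lymphocytes rely on the whole chain, and drugs that block IMP dehydrogenase are used to restrain them, while resting cells draw more on salvage of ready-made bases and nucleosides. Impdh2 is the form that rises in dividing cells and Impdh1 the form held more constant.

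Myc, a transcription factor that activates many genes of this pathway, binds the E-box CACGTG. Stretches before the starts of the 3 enzyme genes that hold this motif are shown because the level of Myc fell over the training period, as described further on. They are given 5′ to 3′ on the gene's strand, from RefSeq (GRCm38.p6), with the E-box in capitals. The Impdh2 stretch (chr9:108560186-108560435, plus strand) covers the 250 bases before the start, and those of Paics (chr5:76951077-76951126, plus strand) and Atic (chr1:71557106-71557155, plus strand) cover 50 bases each.
Impdh2: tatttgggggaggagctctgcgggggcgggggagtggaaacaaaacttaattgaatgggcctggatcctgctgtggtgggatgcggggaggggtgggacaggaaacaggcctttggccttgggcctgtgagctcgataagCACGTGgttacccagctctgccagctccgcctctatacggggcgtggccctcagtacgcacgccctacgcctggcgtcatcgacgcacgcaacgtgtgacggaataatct
Paics: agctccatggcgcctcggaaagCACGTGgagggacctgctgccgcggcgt
Atic: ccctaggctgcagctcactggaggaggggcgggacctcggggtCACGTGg

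All 10 genes had at least 1 RefSeq window of 300 bases (250 before and 50 after the start), 12 windows in all, and the E-box, which reads the same on both strands, stood in 3 of the 12. Among all 32851 windows of RefSeq genes, 7.15% held it. Its first base lay at -110 in Impdh2, -203 in Paics and -7 in Atic, counted from the start. The match is one of letters, and no binding was measured here.

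Impdh2 had levels of 1.94, 0.82 and 1.21 in untrained pre replicates 1 to 3, 1.94, 0.94 and 3.08 in untrained post, 1.89, 2.39 and 1.47 in trained pre, and 2.76, 1.63 and 0.99 in trained post. All 4 groups overlapped, and each post-training group held both a high and a low array. The highest of the 12 arrays was untrained post 3 and the lowest untrained pre 2. Group means were 1.32 ± 0.57 (SD, n = 3) in untrained pre, 1.99 ± 1.07 in untrained post, 1.92 ± 0.46 in trained pre and 1.79 ± 0.90 in trained post, and neighbours in the order of these means differed by less than their spread.

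**Figure D1:**
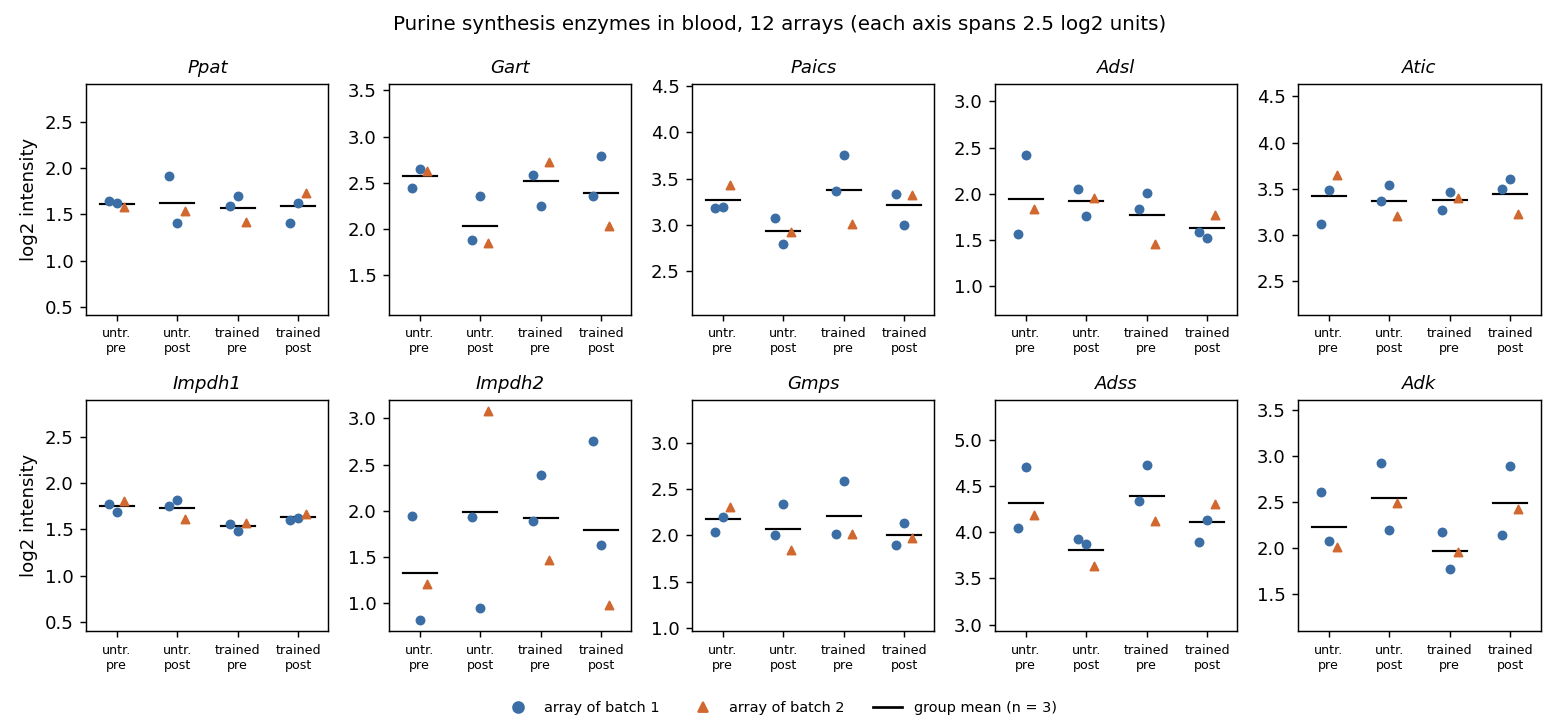
Log2 intensity of the 10 enzymes (y axis) in the 4 groups (x axis), with 1 point per array, circles for batch 1, triangles for batch 2 and a line at the group mean; each y axis spans the same width. Impdh2 ranges from 0.82 to 3.08 with overlap of all groups, while Impdh1 stays between 1.48 and 1.81.

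After training, Impdh2 differed by -0.19 log2 between trained and untrained mice (SE 0.53, 95% interval -1.35 to 0.96, n = 3 arrays per group, limma adjusted p = 0.972). The difference was 0.75 in batch 1 and -2.09 in batch 2, and without untrained post 3 it was 0.58. The study picked Impdh2 with the help of batch 1, so its direction there is not independent evidence. The batch 1 value itself rested on arrays that lay far apart: replicates 1 and 2 differed by 0.99 log2 in untrained post and by 1.13 in trained post. Before training the same pairs differed by 1.12 in the untrained and 0.50 in the trained group, and the trained minus untrained difference was 0.60 log2 (SE 0.53, limma adjusted p = 0.999). It was 0.31 without untrained pre 2, 0.36 without trained pre 2 and 0.91 without untrained pre 1.

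Over the training period Impdh2 changed by 0.66 log2 in untrained mice (SE 0.53, 95% interval -0.49 to 1.81, limma adjusted p = 0.676) and by -0.13 in trained mice (SE 0.53, -1.28 to 1.02, limma adjusted p = 0.972). The first of these was 1.86 in batch 2 and 0.06 in batch 1, and it was -0.11 without untrained post 3. The interaction of training and time was -0.79 log2 (SE 0.75, limma adjusted p = 0.947), with -0.01 in batch 1 and -2.35 in batch 2. None of these tests passed the threshold, and their intervals leave room for changes of more than 1 log2 in at least 1 direction.

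The spread of Impdh2 between replicates set it apart from the other enzymes. With group and batch means removed, its SD was 0.84 log2, 2.48 times that of Adk, the next member (0.34), and 50 of the 27381 features had a larger one. The other 9 enzymes had SDs of 0.07 to 0.34, beside a median of 0.19 over all features. Except for Impdh1 and Ppat they lay above that median, up to Adk with 89.7% of features below it. Impdh1 was the steadiest at 0.07, with 1.52% of all features below it. The mean levels of Ppat (1.60), Impdh1 (1.66) and Impdh2 (1.76) lay not far above 1.47, the median of all feature means. Impdh2 reached down to 0.82, below that median, and no detection call was used, so the SDs may partly reflect low signal. This is a description of these arrays, and no test was made of the spread.

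**Figure D2:**
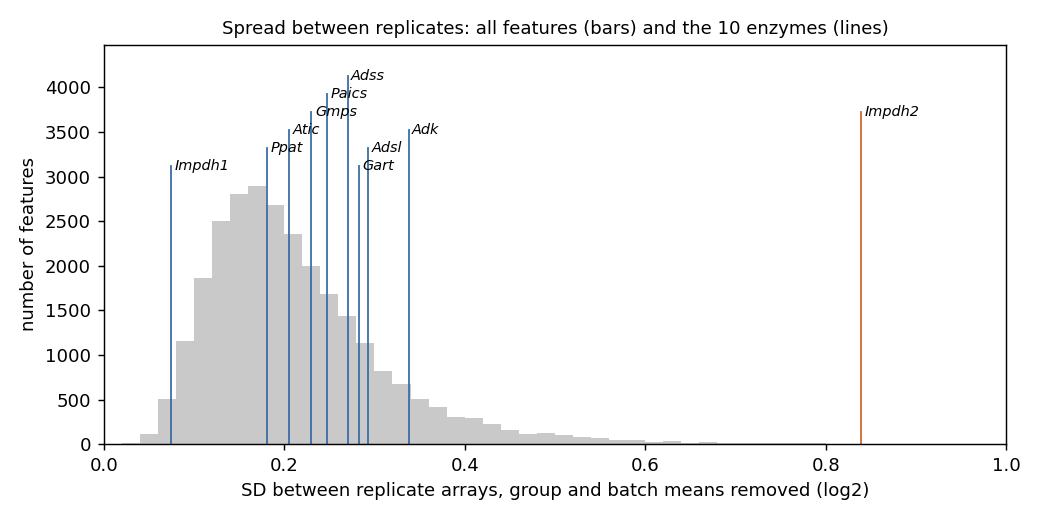
Number of features (y axis) by their SD between replicate arrays after group and batch means were removed (x axis, log2), with lines for the 10 enzymes. The line of Impdh2 stands at 0.84, apart from the other enzymes, which lie between 0.07 and 0.34.

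The pattern of Impdh2 over the arrays was compared with that of 13680 other named features of at least median level, as a description with no test. The nearest was Mast3, a microtubule-associated kinase, with a Pearson r of 0.942 over the 12 arrays (Spearman rho 0.972) and 0.976 over the 8 arrays of batch 1. Mast3 moved over a narrower range, from 3.12 in untrained pre 2 to 3.88 in untrained post 3, the same arrays that were lowest and highest for Impdh2. Next came Bckdk (r = 0.864), a kinase that restrains breakdown of branched amino acids, Git1 (0.833), Ylpm1 (0.832) and Gm38506 (0.822). At the other end stood Nr2f6, an orphan nuclear receptor (-0.885), Ctrl (-0.818), Sry (-0.813), Syngr4 (-0.810) and Nipal1 (-0.806). These genes were the extremes of a long search over few arrays, and Mast3 itself differed between trained and untrained mice after training by -0.09 log2 (SE 0.18, limma adjusted p = 0.960).

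**Figure D3:**
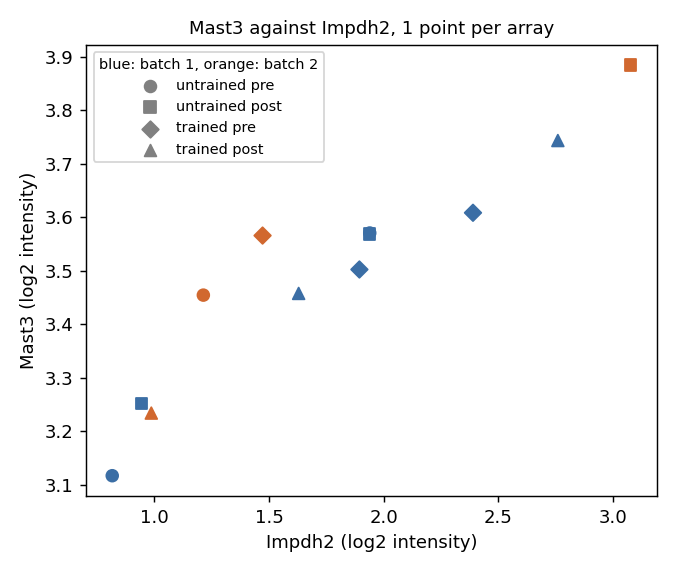
Log2 intensity of Mast3 (y axis) against Impdh2 (x axis), with 1 point per array, shapes for the groups and colours for the batches (untrained pre 1 and untrained post 1 nearly coincide). The points rise together (r = 0.942) and each group is spread along the line.

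Impdh1, which carries out the same reaction as Impdh2, had levels of 1.77, 1.68 and 1.81 in untrained pre and 1.56, 1.48 and 1.57 in trained pre, so that the groups did not overlap before training. The difference was -0.22 log2 (SE 0.11, 95% interval -0.46 to 0.02, limma adjusted p = 0.999), and in this comparison 0% of all features passed. Impdh1 was the 1 enzyme of 10 whose groups did not overlap there, beside 10.8% of all features. After training Impdh1 stood at 1.61 to 1.81 in untrained and 1.60 to 1.67 in trained mice. Gmps, which turns the product of IMP dehydrogenase into GMP, ranged from 1.84 to 2.58 over the 12 arrays, with group means of 2.00 to 2.21. Trained minus untrained it differed by 0.02 log2 before training and by -0.06 after it.

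On the adenine branch, Adss, which joins aspartate to IMP, had its highest arrays before training. Its levels were 4.04, 4.70 and 4.19 in untrained pre and 4.34, 4.73 and 4.12 in trained pre, against 3.93, 3.87 and 3.63 in untrained post and 3.89, 4.13 and 4.30 in trained post. In untrained mice every post array lay below every pre array, while in trained mice the groups overlapped. Over both groups the change was -0.39 log2 (SE 0.14, 95% interval -0.69 to -0.09, limma adjusted p = 0.174), and it had the smallest p among the 10 enzymes. The change was -0.50 in batch 1 and -0.19 in batch 2. In trained mice alone it was -0.29 (SE 0.20, limma adjusted p = 0.692) and its sign turned between batches, with -0.52 and 0.18. Adsl, which acts both here and upstream of IMP, had the lowest t statistic of the 10 for trained against untrained mice after training, at -0.30 log2 (SE 0.21, limma adjusted p = 0.845). Its levels of 2.06, 1.77 and 1.96 in untrained post and 1.59, 1.53 and 1.77 in trained post just overlapped.

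In the chain leading to IMP, Ppat, the amidotransferase that commits ribose phosphate to purines, ranged from 1.41 to 1.92 and its group means from 1.57 to 1.62. Gart, a trifunctional enzyme of the early steps, had levels of 2.44, 2.65 and 2.63 in untrained pre and 1.89, 2.36 and 1.85 in untrained post, without overlap. In trained mice the levels were 2.59, 2.25 and 2.72 before and 2.36, 2.79 and 2.03 after training, with full overlap. The change in untrained mice was -0.54 log2 (SE 0.20, 95% interval -0.98 to -0.10, limma adjusted p = 0.273; -0.43 and -0.77 in the batches). Gart was also the enzyme with the highest t statistic for trained against untrained mice after training, at 0.36 log2 (SE 0.20, 95% interval -0.08 to 0.80, limma adjusted p = 0.825), and for the interaction, at 0.42 (SE 0.29, limma adjusted p = 0.932). The difference after training was 0.46 in batch 1, 0.18 in batch 2 and 0.17 without trained post 2.

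Paics, which carries out a carboxylation and the joining of aspartate, had levels of 3.18, 3.20 and 3.43 in untrained pre and 3.07, 2.79 and 2.93 in untrained post. Here too the untrained groups did not overlap, and the change was -0.34 log2 (SE 0.18, unadjusted p = 0.0890, limma adjusted p = 0.485). Adss, Gart and Paics made 3 of 10 enzymes without overlap between untrained pre and untrained post, all lower after training, beside 18.7% of all features in either direction. The trained groups of Paics overlapped, at 3.36, 3.76 and 3.01 before and 3.33, 3.00 and 3.32 after training. Atic, which completes IMP, stayed between 3.12 and 3.65 in all arrays, with group means of 3.37 to 3.45.

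Ppat and Paics lie on opposite strands of chromosome 5, and their 5′ ends overlap: the RefSeq start of Ppat on the minus strand lies 276 bases inside the plus-strand transcript span of Paics, and each runs past the start of the other. Their levels correlated at r = 0.283 over the 12 arrays (Spearman rho 0.294, permutation p = 0.376 and 0.358; r = 0.179 in batch 1 and 0.384 without the 2 arrays farthest from the Ppat median). Over the 45 pairs of enzymes r ran from -0.512 to 0.677, with 2 at an unadjusted permutation p under 0.05 and 0 after Benjamini-Hochberg adjustment over the pairs. The highest was that of Adss and Paics (r = 0.677, Spearman rho 0.699, permutation p = 0.0161 and 0.014, adjusted p = 0.541 and 0.562 over the pairs, r = 0.652 in batch 1 and 0.616 without the 2 farthest arrays). For Impdh2 the 9 values of r ran from -0.496 with Impdh1 to 0.151 with Paics. The arrays of 4 groups were pooled for these values.

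Adk, which salvages adenosine to AMP, had levels of 2.60, 2.08 and 2.01 in untrained pre, 2.17, 1.78 and 1.96 in trained pre, 2.92, 2.20 and 2.49 in untrained post and 2.14, 2.89 and 2.42 in trained post. It was the enzyme with the largest positive change over the period, 0.41 log2 in both groups together (SE 0.16, 95% interval 0.05 to 0.77, limma adjusted p = 0.245), at 0.38 in batch 1 and 0.47 in batch 2. The pre and post arrays overlapped in both groups. By group the change was 0.31 in untrained (SE 0.23, limma adjusted p = 0.654) and 0.51 in trained mice (SE 0.23, limma adjusted p = 0.470). The first was 0.12 without untrained post 1, 0.20 without untrained pre 2, 0.48 without untrained pre 1 and 0.51 without untrained post 2, and the second was 0.32 without trained post 2.

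Set side by side, none of the 10 enzymes passed limma's test (Benjamini-Hochberg adjusted p under 0.05 over all features) in any of the 6 contrasts. For trained against untrained mice after training, the main question of the study, the smallest adjusted p was 0.825. Of the enzymes, 4 had a positive and 6 a negative difference, with a median of -0.04 log2 beside -0.01 over all features. Here 0% of all features were called, the arrays of 0 enzymes did not overlap beside 12.1% of features, and at an unadjusted p under 0.05 there were 0 enzymes beside 6.41% of features. Leaving Impdh2 aside, the 95% intervals of the 9 other enzymes together spanned -0.75 to 0.80 log2. Before training the median was -0.05 beside -0.01, with 0 enzymes at an unadjusted p under 0.05 beside 4.2% of features.

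Over the training period 0 enzymes were called in untrained mice, beside 0.676% of features, and 0 in trained mice, beside 0.281%. At an unadjusted p under 0.05 there were 2 in untrained mice, Gart and Adss (12.6% of features), and 1 in trained mice, Adk (10.4%). With both groups together 0 enzymes were called beside 3.21% of features, 1.3% higher and 1.92% lower. Here Adss, Gart and Adk had an unadjusted p under 0.05, 3 of 10 beside 15.5% of features, and the median was -0.03 beside 0.01 over all features. For the interaction 0 enzymes were called, beside 0.00365% of features, with 0 at an unadjusted p under 0.05 beside 5.67%, and a median of 0.12 beside -0.00392 over all features. That median was 0.02 without trained pre 3 and also without trained post 2, and with any single array left out it stayed between 0.02 and 0.15. The comparisons within a time point and those over time share arrays, so they do not support each other.

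**Figure D4:**
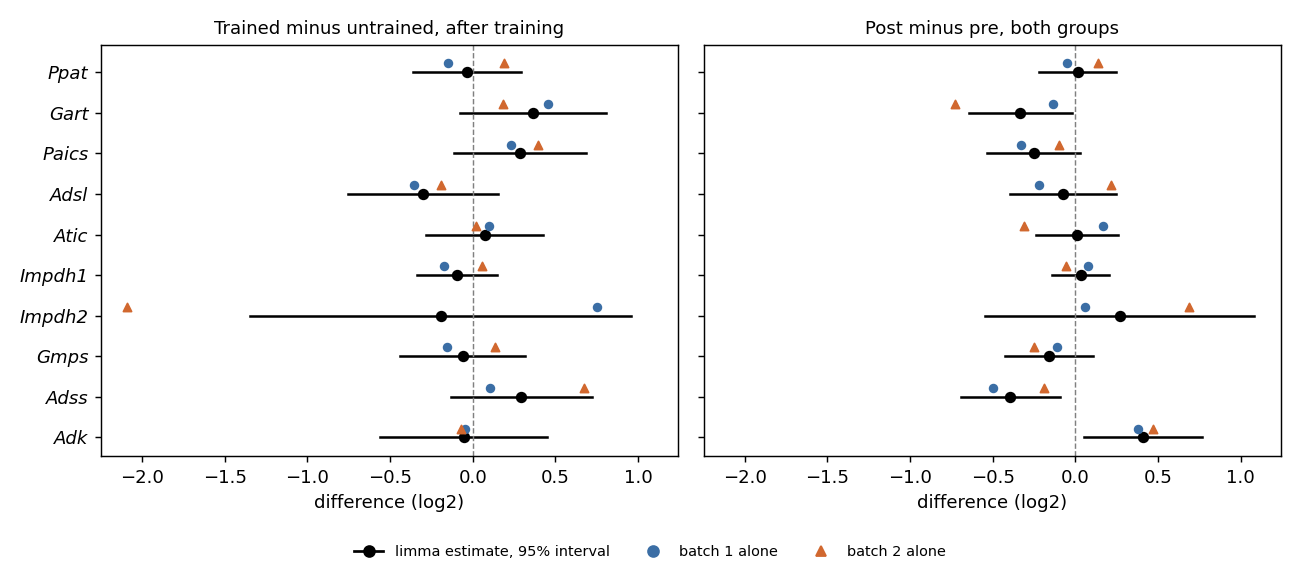
Difference of each enzyme in log2 (x axis) for trained minus untrained mice after training (left) and for post minus pre over both groups (right), with limma estimates and 95% intervals in black and the value of each batch in colour. The interval of Impdh2 after training runs from -1.35 to 0.96, and its batches lie at 0.75 and -2.09.

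Levels of blood cell markers moved over the same interval. The mean deviation of the 8 B cell markers was 0.58 to 0.79 log2 in the 6 pre arrays and -1.44 to 0.18 in the 6 post arrays, without overlap. The 6 neutrophil markers did not overlap either, with 0.17 to 0.73 before and -1.0 to 0.06 after training, and the 6 platelet markers lay the other way round, with -0.31 to 0.01 before and 0.10 to 0.42 after. Markers of T cells (0.09 to 0.36 before and -0.62 to 0.24 after), monocytes (0.02 to 0.43 and -0.59 to 0.35) and NK cells (-0.04 to 0.43 and -0.87 to 0.61) overlapped. The mean over the 9 markers of dividing cells, in which Impdh2 is known to be high, stayed between -0.18 and 0.15 in all arrays. Of these markers 5 had a positive and 4 a negative change over the period in both groups together. Among them 1 was called higher, beside 1.3% of all features. Erythroid markers lay between -0.18 and 0.19. Between trained and untrained mice after training, 0 markers passed limma's test, and the difference was positive for 8 of 8 B cell markers (median 0.48 log2), 8 of 8 T cell markers (0.27), 6 of 6 NK cell markers (0.59) and 5 of 6 monocyte markers (0.30), beside a median of -0.01 over all features. The mean deviation, however, was lower in trained post 3 than in untrained post 3 for B cells (-1.20 against -0.95). The same held for T cells (-0.58 against -0.46) and monocytes (-0.54 against -0.47), but not for NK cells (-0.43 against -0.87). In the other replicates it was higher in trained mice for each of these lists, and the post-training ranges overlapped. The trained minus untrained difference after training was negative for 7 of 9 markers of dividing cells (median -0.13) and 6 of 6 muscle markers (-0.38). Before training it was already negative for 6 of 9 markers of dividing cells (median -0.17) and 6 of 6 muscle markers (-0.61). The medians of the B cell, T cell, NK cell and monocyte markers were then 0.02, 0.03, 0.02 and 0.03. The part of these shifts in the values of the purine genes was not tested, and in bulk blood fewer cells of a type cannot be told apart from less RNA per cell.

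Genes around the 10 enzymes were taken as lists. Of the 4 remaining genes of synthesis, 0 passed limma's test in any contrast. Prps1, which makes the activated ribose phosphate that Ppat consumes, had the smallest p of them. Its levels were 1.73, 1.62 and 1.54 in untrained post and 2.68, 2.31 and 2.53 in trained post, against 2.80, 2.14 and 2.42 in untrained pre and 2.11, 2.87 and 1.92 in trained pre. The 3 untrained post arrays were the lowest of all 12. They lay not far above 1.47, the median of all feature means, and no detection call was used. Trained mice were 1.84-fold higher after training (0.88 log2, SE 0.22, 95% interval 0.39 to 1.36, unadjusted p = 0.00188, limma adjusted p = 0.599), with 0.82 in batch 1 and 0.99 in batch 2. The B, T and NK cell markers had positive differences in the same comparison, as given above. In batch 2, however, the mean deviation of the B and T cell markers was lower in the trained array. The part of these markers in the Prps1 value was not tested. The change of Prps1 over the period was -0.83 log2 in untrained mice (SE 0.22, unadjusted p = 0.00289, limma adjusted p = 0.117, its lowest), with -0.80 and -0.88 in the batches, and 0.21 in trained mice (SE 0.22, limma adjusted p = 0.845). Before training the difference was -0.16 (SE 0.22), and the interaction was 1.03 log2 (SE 0.31, limma adjusted p = 0.832).

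Among 16 genes of purine salvage and interconversion 0 passed. Hprt, which recovers hypoxanthine and guanine, had the smallest p of the list, for a change of -0.32 log2 over the period in both groups (SE 0.09, limma adjusted p = 0.0929; -0.31 and -0.34 in the batches). Its levels ran from 3.00 to 3.74 before and from 2.61 to 3.29 after training. In both groups together 4 of the 16 genes had a positive and 12 a negative change, with a median of -0.10 beside 0.01 over all features. In untrained mice 3 changes were positive and 13 negative (median -0.14, beside 0.02 over all features). In trained mice 10 were positive and 6 negative (median 0.03, beside 0.00448). Before training, trained minus untrained was positive for 4 of these genes and negative for 12 (median -0.10, beside -0.01 over all features). After training it was positive for 10 and negative for 6 (median 0.08, beside -0.01). At an unadjusted limma p under 0.05 there was 1 gene before training, beside 4.2% of features, and 3 after it, beside 6.41%.

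The list of purine breakdown held 11 genes, not all of them specific to purines. Over the period in both groups together 1 rose and 1 fell, where 1.3% of all features were called higher and 1.92% lower. Samhd1, which hydrolyses deoxynucleotides and is abundant in myeloid cells and resting lymphocytes, fell by 0.89 log2 (1.85-fold, SE 0.18, limma adjusted p = 0.0219). It stood at 7.04 to 7.57 in the pre arrays and at 5.87 to 6.96 in the post arrays, without overlap, as for 2.3% of all features. The change was -0.67 log2 in batch 1 and -1.33 in batch 2. The call ended without untrained pre 2 (-0.89), untrained pre 3 (-0.77), trained pre 3 (-0.86) or trained post 3 (-0.73), at adjusted p of 0.0508 to 0.0666. Ptprc, the pan-leukocyte antigen CD45, ranged from 6.19 to 6.73 before and from 4.82 to 6.22 after training in the same arrays. Ada, which deaminates adenosine, rose by 0.39 log2 (1.31-fold, SE 0.10, limma adjusted p = 0.0473), from 1.27, 1.30 and 1.28 to 1.84, 1.91 and 1.91 in untrained mice and from 1.23, 1.57 and 1.34 to 1.81, 1.43 and 1.43 in trained mice. The untrained groups were far apart and the trained groups overlapped. These levels lay around 1.47, the median of all feature means, and no detection call was used. The interaction for Ada was -0.42 log2 (SE 0.19, limma adjusted p = 0.881), and its call over the period held without trained pre 2 (0.44 log2) and ended without any other single array (0.33 to 0.43 log2).

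Of 10 regulators of purine genes, 1 passed, beside 3.21% of all features. This was Myc, and over the period in both groups it fell by 0.61 log2 (1.53-fold, SE 0.14, limma adjusted p = 0.0377; -0.60 and -0.64 in the batches). Its levels were 3.56, 2.86 and 3.14 in untrained pre and 3.44, 2.93 and 3.03 in trained pre. All lay above the 2.36, 2.61 and 2.63 of untrained post and the 2.82, 2.61 and 2.28 of trained post. Such a separation, in either direction, was found for 2.3% of all features. The B cell and neutrophil markers were also lower after training and the platelet markers higher, as given above. Their part in the fall of Myc was not tested. The call held without untrained pre 2, untrained post 3, trained pre 2 or trained post 1 and ended without any other single array (-0.62 to -0.52 log2). Over the same contrast the enzymes with an E-box in their window changed by 0.27 (Impdh2), -0.25 (Paics) and 0.01 log2 (Atic), and none of them passed.

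**Figure D5:**
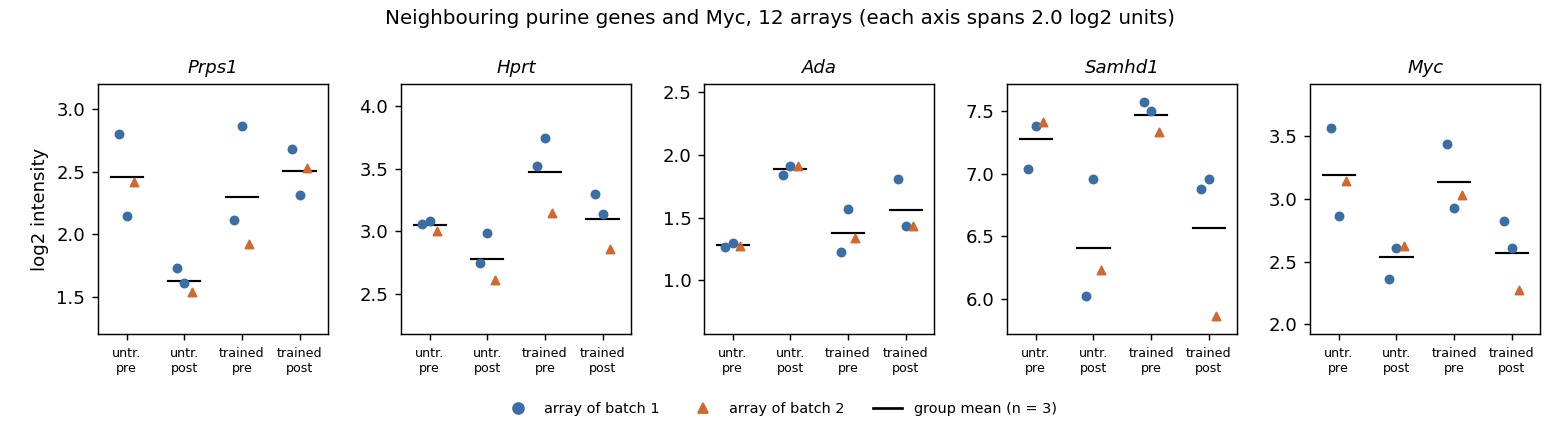
Log2 intensity of Prps1, Hprt, Ada, Samhd1 and Myc (y axis, each of the same width) in the 4 groups (x axis), with 1 point per array and a line at the group mean. Prps1 is lowest in the 3 untrained post arrays (1.54 to 1.73). Samhd1 and Myc are lower in all post than in all pre arrays, a separation found in either direction for 2.3% of all features.

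The supply of one-carbon units, which provides carbons of the purine ring, was measured through 12 of 13 listed genes, of which 0 passed in any contrast. The smallest p was that of Mthfd2l, a mitochondrial folate enzyme, with 0.40 log2 over the period in both groups (SE 0.15, limma adjusted p = 0.199). In the parallel pathway of pyrimidine synthesis 0 of 10 genes passed. Dhodh, its mitochondrial dehydrogenase, had the smallest p, with an interaction of 0.58 log2 (SE 0.19, limma adjusted p = 0.843). Trained minus untrained, Dhodh differed by -0.37 log2 before training (SE 0.13, limma adjusted p = 0.999) and by 0.22 after it (SE 0.13, limma adjusted p = 0.832).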

How the data were processed

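Per the labels and the study's methods, the authors turned the scans of the Mouse Gene 2.0 ST arrays into log2 intensities with the Robust Multiarray Average (affy 1.62.0, R 3.6.0). This method subtracts background, gives all arrays 1 distribution and combines the probes of each Entrez gene into 1 value. An adjustment for batch is not mentioned. No detection call was used, and the number of arrays limits the precision. The pools are called biological replicates, and whether pre and post pools held the same mice is not stated.

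All 27381 features entered limma 3.58.1 (lmFit and eBayes, R 4.3.3), with 4 group means and batch, leaving 7 residual degrees of freedom. Tests were two-sided, and p-values were adjusted by Benjamini-Hochberg across the features with 0.05 as the threshold. The 95% intervals come from limma's moderated statistics. Batch values are differences of means within a batch, and batch 2, with 1 array per group, had no test. Correlations between enzymes used 100000 permutations, two-sided. The fit was tested on simulated data.

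The members, lists and tests were chosen with earlier results of these data known. Tested differences were given for Impdh2, for members past the threshold, for the members with the highest and lowest moderated t in each contrast, and for list genes past the threshold or with the smallest p of a list without any. Other contrasts of those genes, the array values of Paics and Impdh1, and Ptprc were added after their values were seen. The alternatives were no batch term, batch 1 alone, batch 2 alone, a replicate block, the compared arrays alone, quantile normalization, median centring, features of at least median level, limma's trend option and each array left out.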

Additional observations from a re-analysis of the deposited data

How the results depend on the processing

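No enzyme was called in any contrast under any alternative with a test, and the smallest adjusted p of a member in any of them was 0.0875. Most values of Impdh2 kept their direction, but batch and single arrays turned it. After training the trained minus untrained value was 0.753 in batch 1 alone and -0.77 to 0.58 with an array left out. In trained mice the change was 0.0526 in batch 1 alone and -0.62 to 0.36 with an array left out. In untrained mice it was -0.11 to 1.24, and in both groups -0.12 to 0.55. Without both post-training arrays of batch 2, a setting chosen after seeing the data, Impdh2 stood at 0.753 for trained against untrained mice after training, -0.0214 over the period in untrained and 0.14 in trained mice, and 0.16 for the interaction. The change of Adss in trained mice was 0.18 in batch 2 alone. The call of Ada was lost in batch 1 alone (adjusted p = 0.263), with the replicate block (0.0587), quantile normalization (0.0588), median centring (0.0661) and the trend option (0.0528). That of Myc was lost in batch 1 alone (0.229) and after quantile normalization (0.0503), and that of Samhd1 in batch 1 alone (0.197), which held fewer arrays, and in 4 fits with an array left out. Mthfd2l passed without trained pre 2 (0.52 log2, adjusted p = 0.0446).

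The replicate block changed no other call. With it Impdh2 after training kept its value of -0.19 (adjusted p = 0.966). Deviations from the group means correlated over 0.1 in 2 of 18 pairs of arrays with the same number (-0.19 to 0.135 in all). The 2 pairs were trained post 2 with untrained post 2 (0.135) and with trained pre 2 (0.117). The study trained mice in pairs of same-sex littermates. These values cannot show whether arrays of the same number held such pairs or the same mice, and replicate 3 was also batch 2. For both groups and the interaction the compared arrays are all 12, so that setting gave no separate value.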
